A study of Mus musculus with 8 samples.

Results

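Elastin, the fibulins and the microfibril-associated proteins were followed here as 10 named genes: Eln, Fbln1, Fbln2, Fbln5, Efemp1, Efemp2, Mfap2, Mfap4, Mfap5 and Emilin1. The members were chosen by gene family, with earlier results of these data known. For each gene the transcript cluster (a set of array probes along a gene) with that single symbol was taken, and the brightest where there were several. This gave 9 of the 10 genes, out of 30176 genes and 65956 transcript clusters on the array, and each of the 9 had 1 cluster. Efemp2 had no cluster with a single symbol in the platform annotation and was not analysed here.

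Expression was measured in whole lungs of 8 mice with Clariom D mouse arrays, 1 array per animal. The groups were 4 Atf4D/D mice (knockout, KO; Atf4Δ/Δ in the study) and 4 Atf4wt/wt mice (wild-type, WT), all 13 weeks old and 4 weeks after tamoxifen, with 3 males and 1 female in each group. Mice of both genotypes carried Rosa26::CreERT2, a tamoxifen-activated recombinase that is active in most cell types, on a C57BL/6 background, and floxed Atf4 was excised in the KO mice only. ATF4 is the transcription factor through which stressed cells switch on amino acid supply and other adaptive genes, and the comparison asks how its loss in the host alters the lung before tumour cells arrive. In bulk lung, fewer cells of a type and less RNA per cell cannot be told apart, and p-values measure only the spread between these animals.

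An elastic fibre has a core of crosslinked elastin surrounded by microfibrils, which are built on fibrillins and carry the microfibril-associated glycoproteins. Several fibulins and EMILIN-1 lie between core and microfibrils, and lysyl oxidases join elastin monomers covalently. In lung these fibres run through alveolar walls, airways, vessels and pleura, and give the tissue its recoil. They are laid down mostly during growth and turn over slowly, so transcript levels in an adult lung do not measure how much fibre is present.

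Values are log2 signals, on which a difference of 1 is a doubling. Array medians lay between 5.21 and 5.29, and any pair of arrays correlated at 0.988 to 0.996 across clusters. The targeted gene was lower in every KO lung: Atf4 read 6.34, 6.26, 6.48 and 6.38 in KO replicates 1 to 4, against 6.99, 8.03, 7.995 and 7.58 in WT replicates 1 to 4 (change -1.29, SE 0.21, adjusted p = 0.0485 by limma). That call ended in 7 of the 8 fits that left out 1 array, all but that without WT replicate 1 (adjusted p from 0.0965 to 0.159), with a term for sex (0.0717) and with males only (0.301), while the change stayed between -1.51 and -1.14. In its Atf4 signal, the array labelled WT replicate 1 was the WT array nearest to the KO arrays. Lung identity was clear on all arrays, with the surfactant gene Sftpc at 18.50 to 18.71 in KO and 18.71 to 18.90 in WT lungs.

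Most elastic fibre genes read lower in the KO lungs, but no single one passed the study's threshold. Of the 9 genes, 8 had a lower KO mean and 1, Mfap2, a higher one. A gene counted as called when its fold exceeded 1.5 and its limma p, adjusted by Benjamini-Hochberg over all clusters, was 0.05 or less. By that rule 0 of the 9 were called, and 0.276% of all clusters. At an unadjusted p under 0.05, 6 of the 9 were lower, compared with 7.63% of all clusters and 10.7% of the clusters above the median level, to which all 9 belong. Every KO lung lay below every WT lung for 4 of the 9 genes, Fbln1, Fbln5, Mfap5 and Emilin1, compared with 4.41% of all clusters and 5.75% of those above the median level. The median change of the 9 genes was -0.48, and that of all clusters -0.03. A lower KO mean was thus also the more common direction over all clusters. The 95% confidence intervals of the change excluded 0 for 7 of the genes before adjustment. These counts are descriptions, since the members were chosen with earlier results known.

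**Figure D1:**
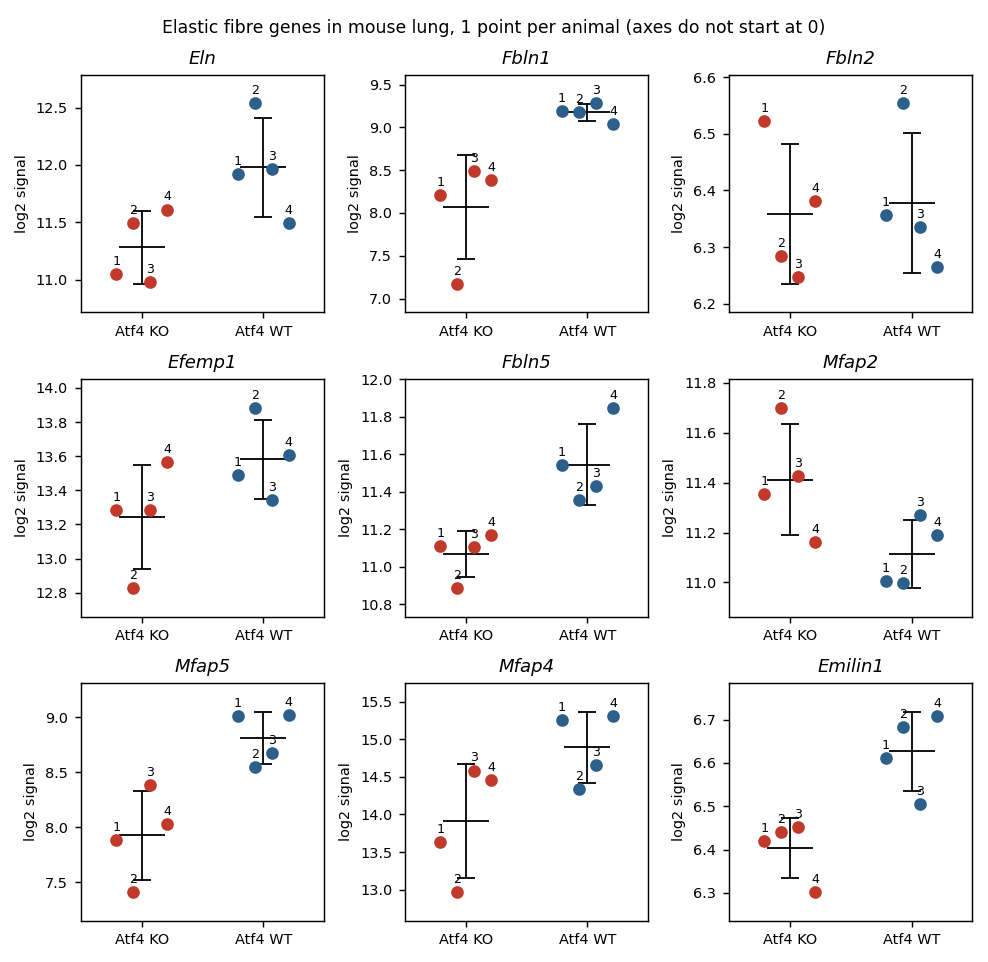
Log2 signal (vertical axes, each with its own range) of 9 elastic fibre genes in Atf4 KO and Atf4 WT lungs. Each point is 1 animal with its replicate number, the long bar is the mean and the whiskers are 1 SD (n = 4). The groups do not overlap for Fbln1, Fbln5, Mfap5 and Emilin1.

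**Figure D2:**
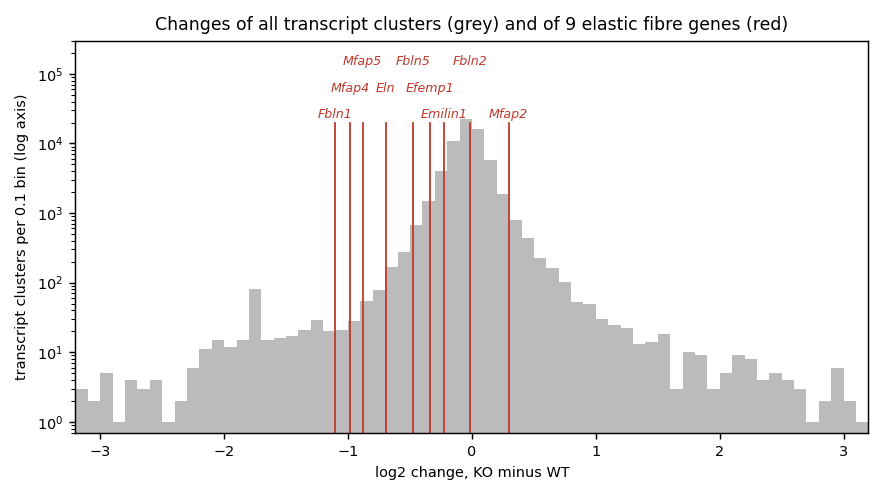
Number of transcript clusters (log axis) by log2 change, KO minus WT, with the 9 elastic fibre genes as red lines. Their median is -0.48, and the median of all 65956 clusters is -0.03.

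Elastin itself, the rubber-like core protein, read lower in most KO lungs. Eln had signals of 11.05, 11.50, 10.98 and 11.61 in KO replicates 1 to 4, against 11.92, 12.54, 11.97 and 11.49 in WT replicates 1 to 4. The groups overlapped through WT replicate 4, which lay below KO replicates 2 and 4, while WT replicate 2 was the highest lung of all. The mean was 11.28 ± 0.32 in KO and 11.98 ± 0.43 in WT lungs (SD, n = 4 each). The change of -0.70 (SE 0.22, 1.62-fold) had an unadjusted p of 0.0124 and an adjusted p of 0.269 by limma. Leaving out WT replicate 2 gave -0.51, and leaving out WT replicate 4 gave -0.86. Mesothelial markers, which mark the pleural surface where elastic fibres are dense, were also highest in WT replicate 2, with a mean log2 signal of 9.95 over 6 genes against 7.67 to 8.25 in the other WT lungs and 7.39 to 9.24 in the KO lungs. Their part in the elastin values was not tested.

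Among the fibulins, secreted calcium-binding proteins with repeated EGF-like modules, Fbln1 differed most. Fibulin-1 is found in elastic fibres, basement membranes and vessel walls. Its signal was 8.21, 7.18, 8.50 and 8.39 in KO replicates 1 to 4, against 9.20, 9.18, 9.28 and 9.04 in WT replicates 1 to 4. The WT lungs were nearly equal, and KO replicate 2 stood more than 1 unit below the other KO lungs. The change was -1.11 (SE 0.26, 2.16-fold, adjusted p = 0.144 by limma). Without KO replicate 2, the female of that group, the change was smaller, at -0.81, but the spread shrank and the gene was called (adjusted p = 0.037). In males only the change was -0.78 (adjusted p = 0.148).

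Fbln5 encodes fibulin-5, which binds elastin and integrins and is required for normal elastic fibres in mice. It had signals of 11.11, 10.89, 11.10 and 11.17 in KO replicates 1 to 4, against 11.54, 11.36, 11.43 and 11.85 in WT replicates 1 to 4. No lungs overlapped, although the gap between the highest KO and the lowest WT lung was small. The change was -0.48 (SE 0.11, 1.39-fold, adjusted p = 0.153 by limma), and it lay between -0.54 and -0.38 whichever array was left out.

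Efemp1 and Fbln2 gave less or no difference. Efemp1, which encodes fibulin-3, read 13.29, 12.83, 13.29 and 13.57 in KO replicates 1 to 4, against 13.49, 13.88, 13.34 and 13.61 in WT replicates 1 to 4. The groups overlapped, with KO replicate 2 lowest, and the change of -0.34 (SE 0.16) had an interval of -0.71 to 0.03 (adjusted p = 0.459 by limma). Fbln2 encodes fibulin-2, a larger fibulin that binds fibrillin and elastin and is abundant around vessels. It read 6.52, 6.28, 6.25 and 6.38 in KO replicates 1 to 4, against 6.36, 6.55, 6.33 and 6.26 in WT replicates 1 to 4. The groups overlapped almost wholly, and the change of -0.02 had an interval of -0.21 to 0.18.

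Fbln1 and Fbln2 can also be set against each other within each lung. The log2 difference Fbln1 minus Fbln2 was 1.69, 0.89, 2.25 and 2.01 in KO replicates 1 to 4, against 2.84, 2.63, 2.95 and 2.78 in WT replicates 1 to 4. The KO minus WT difference of this quantity was -1.09, and the groups did not overlap. This pair and the pair of microfibril glycoproteins below were picked after their values were seen, so both are given as descriptions with no test.

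The annotated promoters of the genes whose groups did not overlap are shown so that their sequence stands beside the values. RefSeq start sites (GRCm38.p6) gave 12 windows for 7 of the 10 genes, each with 250 bases before and 50 after the start. Eln, Mfap4 and Mfap5 had no entry. The windows were searched on both strands for the C/EBP-ATF response element, the site to which ATF4 binds with C/EBP partners, spelled TGATGNAA. It was found in 1 of the 12 windows, before the downstream of 2 Fbln5 start sites, at position -124 from the start, and in 3.97% of all 32851 windows of this length. A match is a description of letters and not a measured binding site. The 250 bases before the start follow, 5′ to 3′ on the strand of the gene, for Fbln5 (chr12:101818485-101818734, minus strand, at the start site with the match), Fbln1 (chr15:85205699-85205948, plus strand, the upstream of 2 start sites) and Emilin1 (chr5:30913536-30913785, plus strand), with the match in capitals:
Fbln5: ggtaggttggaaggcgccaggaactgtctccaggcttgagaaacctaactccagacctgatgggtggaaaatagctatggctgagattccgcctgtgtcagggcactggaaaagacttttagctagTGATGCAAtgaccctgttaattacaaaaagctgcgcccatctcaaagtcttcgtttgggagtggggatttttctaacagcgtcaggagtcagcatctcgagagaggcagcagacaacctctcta
Fbln1: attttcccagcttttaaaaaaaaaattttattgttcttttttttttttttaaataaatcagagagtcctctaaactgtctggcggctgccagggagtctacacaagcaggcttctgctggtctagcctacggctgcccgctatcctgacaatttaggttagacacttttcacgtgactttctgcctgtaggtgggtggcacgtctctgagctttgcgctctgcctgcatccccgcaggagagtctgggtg
Emilin1: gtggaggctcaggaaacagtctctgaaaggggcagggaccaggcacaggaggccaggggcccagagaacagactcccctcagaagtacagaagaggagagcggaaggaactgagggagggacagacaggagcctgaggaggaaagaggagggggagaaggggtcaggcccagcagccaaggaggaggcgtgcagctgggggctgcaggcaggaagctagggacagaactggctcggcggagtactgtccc

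Other motifs occurred at rates that can be read against the whole table. An AP-1 site, TGANTCA, was present in 1 of the 12 windows, that of Efemp1, and in 7.81% of all windows. A GC box, GGGCGG, was present in 8 of the 12 and in 35.7% of all windows. The letters TATAAA were in 0 of the 12 and in 13.6% of all windows. Some windows of 1 gene overlap, so they are not independent. The 12 include the windows of Efemp2, which has no expression value here, and each of these held a GC box.

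The MAGP glycoproteins, Mfap2 and Mfap5, differed in direction. Mfap5 encodes MAGP-2, which binds fibrillin microfibrils and integrins. It read 7.89, 7.41, 8.39 and 8.03 in KO replicates 1 to 4, against 9.01, 8.55, 8.67 and 9.01 in WT replicates 1 to 4. All KO lungs lay below all WT lungs, with KO replicate 2 lowest. The change was -0.88 (SE 0.20, 1.84-fold), and its unadjusted p of 0.00151 was the smallest of the 9 genes, with an adjusted p of 0.131 by limma.

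Mfap2 encodes MAGP-1, the glycoprotein that sits along microfibrils and also binds elastin. It read 11.35, 11.70, 11.43 and 11.16 in KO replicates 1 to 4, against 11.00, 11.00, 11.27 and 11.19 in WT replicates 1 to 4. It was highest in KO replicate 2, the lung with the lowest Mfap5, and KO replicate 4 lay below 2 WT lungs. The change was 0.30 (SE 0.12, 1.23-fold, interval 0.03 to 0.56, adjusted p = 0.362 by limma). Its unadjusted p by limma was 0.0319, and 4.4% of all clusters were higher at an unadjusted p under 0.05. Without KO replicate 2 the Mfap2 change was 0.20, at an unadjusted limma p of 0.0762. The log2 difference Mfap5 minus Mfap2 was -3.47, -4.29, -3.04 and -3.13 in KO replicates 1 to 4, against -1.997, -2.45, -2.60 and -2.17 in WT replicates 1 to 4. These groups did not overlap, and the KO minus WT difference was -1.18.

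**Figure D3:**
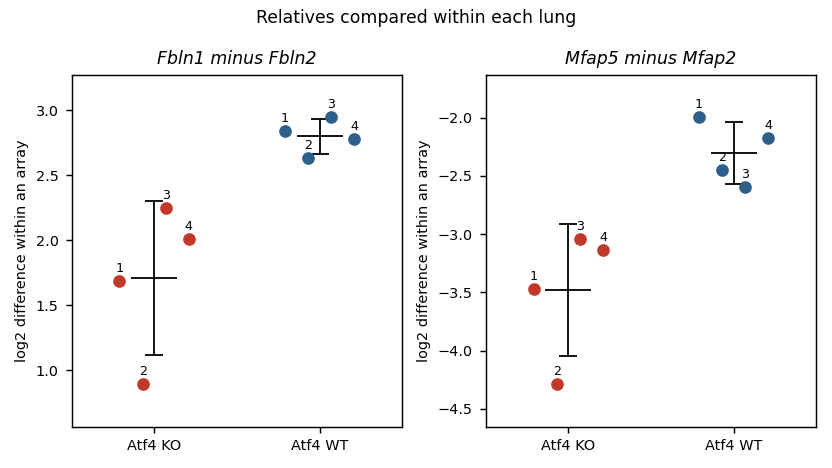
Difference in log2 signal between 2 relatives within the same lung (vertical axes), Fbln1 minus Fbln2 on the left and Mfap5 minus Mfap2 on the right, in Atf4 KO and Atf4 WT lungs. Points are animals with their replicate numbers, bars are means and whiskers 1 SD (n = 4), and the KO lungs lie below the WT lungs in both panels.

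The other glycoproteins of the fibre surface read lower too. Mfap4 encodes a fibrinogen-domain protein that binds elastin, collagen and microfibrils and is abundant in lung and arteries. Its signal was 13.63, 12.97, 14.58 and 14.45 in KO replicates 1 to 4, against 15.26, 14.34, 14.66 and 15.32 in WT replicates 1 to 4. KO replicates 3 and 4 lay above WT replicate 2, and the spread between KO lungs (SD 0.75) was the widest of the 9 genes. The change was -0.98 (SE 0.37, 1.97-fold, adjusted p = 0.335 by limma). Without KO replicate 2 it was -0.67, at an unadjusted p of 0.0596.

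Emilin1 encodes EMILIN-1, a glycoprotein at the interface between elastin and microfibrils that in mice restrains TGF-β processing. It read 6.42, 6.44, 6.45 and 6.30 in KO replicates 1 to 4, against 6.61, 6.68, 6.50 and 6.71 in WT replicates 1 to 4. The groups did not overlap, but the change was small, at -0.22 (SE 0.07, 1.17-fold, adjusted p = 0.243 by limma), and the nearest KO and WT lungs differed little.

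**Figure D4:**
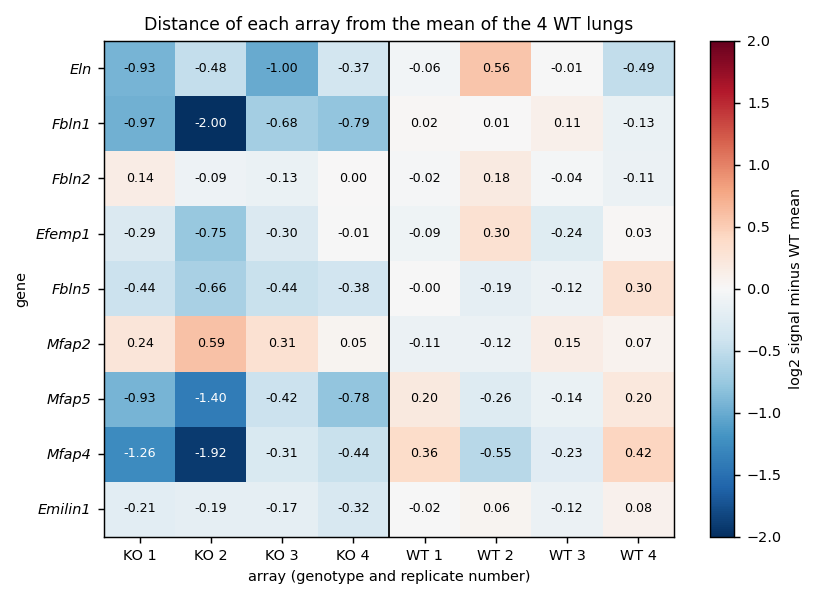
Log2 signal of each gene on each array minus the mean of the 4 WT lungs (colour scale and printed values), with KO replicates 1 to 4 left of WT replicates 1 to 4. KO replicate 2 holds the deepest blue cells for Fbln1, Mfap4 and Mfap5, and all KO values of Mfap2 are above 0.

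The lungs at the ends of each group differed from gene to gene. KO replicate 2 was the lowest KO lung for 5 of the 9 genes, Fbln1, Fbln5, Efemp1, Mfap4 and Mfap5, and the highest for Mfap2. KO replicate 3 was the lowest for Eln and Fbln2 but the highest for Fbln1, Mfap4, Mfap5 and Emilin1. In WT lungs, replicate 4 was the highest for Fbln5, Mfap4, Mfap5 and Emilin1 and the lowest for Eln, Fbln1 and Fbln2, and replicate 2 was the lowest for Fbln5, Mfap2, Mfap4 and Mfap5 and the highest for Eln, Fbln2 and Efemp1. KO replicate 3, WT replicate 2 and WT replicate 4 were thus at one end of their group for elastin and at the other end for Mfap4 and Mfap5, as a description of 4 lungs per group. The mean over the 9 genes was 9.94, 9.69, 10.11 and 10.12 in KO replicates 1 to 4, against 10.49, 10.45, 10.38 and 10.50 in WT replicates 1 to 4, given as a description.

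Marker signals of other cell types differed between the same lungs. Neutrophil markers are a list of 8 measured genes such as S100a8 and Csf3r. Their mean log2 signal was 11.31, 12.50, 9.47 and 10.90 in KO replicates 1 to 4, against 8.29 to 9.08 in WT lungs. All 8 had higher KO means although 0 met the threshold. Before adjustment 7 were higher at a limma p under 0.05, compared with 4.4% of all clusters. KO replicate 2 thus combined the most neutrophil signal with the lowest elastic fibre mean. Platelet markers (6 of 8 measured) were at 10.23 to 11.49 in KO and 7.92 to 10.19 in WT lungs, and erythroid markers (4 of 5 measured) at 8.001 to 9.03 in KO and 6.48 to 6.77 in WT lungs. In these lists 1 platelet marker and 1 erythroid marker were called, compared with 0.276% of all clusters. The part of neutrophils, platelets and erythroid cells in the elastic fibre values was not tested.

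Markers of the cells that make elastic fibres gave mixed values. Of 8 adventitial fibroblast markers measured, 5 were lower and 3 higher, with 0 called (median change -0.21, list mean 7.44 to 7.93 in KO and 7.80 to 8.14 in WT lungs). At an unadjusted limma p under 0.05, 4 of them were lower, compared with 7.63% of all clusters. Of 7 alveolar fibroblast markers, 6 were lower with 0 called (median -0.23, list mean 12.57 to 12.88 in KO and 12.83 to 12.98 in WT lungs). Smooth muscle markers went the other way in 7 of 8 (median 0.34, 0 called), and their list mean of 9.87 to 10.98 in KO and 9.41 to 10.83 in WT lungs overlapped widely. Pericyte markers were lower in 5 of 6 (median -0.15, 0 called), at 9.16 to 9.51 in KO and 9.40 to 9.61 in WT lungs. At an unadjusted limma p under 0.05, 2 alveolar fibroblast and 2 pericyte markers were lower, against the same 7.63% of all clusters. Of the smooth muscle markers, 0 were higher at that p. Among other lung cells, 7 of 9 alveolar epithelial markers were lower, with 0 called. Against that share of 7.63%, 4 of these 9 markers were lower at an unadjusted limma p under 0.05. Their list mean of 14.68 to 14.89 in KO and 14.91 to 15.07 in WT lungs did not overlap, as the mean of the elastic fibre genes did not, and their part in those values was not tested. The list mean of cardiac muscle markers was at 8.44 to 11.74 in KO and 8.21 to 11.26 in WT lungs. Of 8 cartilage markers 0 were called. Chad read 8.81 to 10.78 in KO and 9.28 to 11.05 in WT lungs, and the other 7, among them Acan and Col2a1, read at most 5.06 in KO and 5.16 in WT lungs (named after their values were seen).

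Other genes of the elastic fibre pathway divided between lower and higher. The 22 measured partners were fibrillins, latent TGF-β binding proteins, multimerins, hemicentins, ADAMTS and ADAMTS-like proteins and others. Of these, 18 lay above the median level of all clusters. Of the 22, 13 were lower and 9 higher, with a median change of -0.03. At an unadjusted limma p under 0.05, 6 were lower and 2 higher, compared with 7.63% and 4.4% of all clusters. Every KO lung lay below every WT lung for 6, compared with 4.41% of all clusters, and above for 2. Of the 22 partners 1 was called, compared with 0.276% of all clusters. That gene was Ltbp2, whose product binds fibrillin microfibrils and fibulin-5. It read 7.85, 7.69, 8.11 and 7.82 in KO replicates 1 to 4, against 8.92, 8.67, 8.84 and 9.26 in WT replicates 1 to 4, and fell by 1.05 (SE 0.13, adjusted p = 0.0232 by limma). The call ended without KO replicate 1, KO replicate 2 or WT replicate 3 (adjusted p = 0.0997, 0.0714 and 0.0844), and with males only (adjusted p = 0.197).

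Ltbp3, which holds latent TGF-β, changed by -0.73 (adjusted p = 0.0608 by limma), with 8.60 to 9.24 in KO and 9.58 to 9.78 in WT lungs. Adamtsl2, a fibrillin-binding ADAMTS-like protein, changed by -0.81 (adjusted p = 0.107), with 7.10 to 7.48 in KO and 7.71 to 8.53 in WT lungs. Mmrn1, a multimerin that belongs to the EMILIN family and is stored in platelets and endothelium, went the other way, at 8.76 to 9.26 in KO against 7.71 to 8.49 in WT lungs (change 0.99, adjusted p = 0.0641). The platelet markers given above were also higher in KO lungs, and their part in the Mmrn1 values was not tested. Fbn1 had no cluster with a single symbol and was not analysed here.

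**Figure D5:**
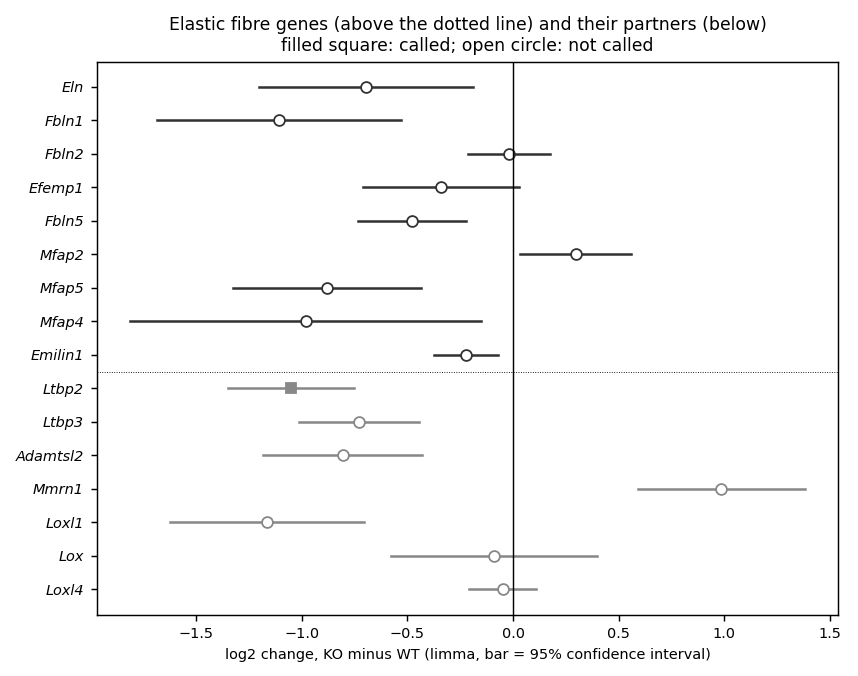
Log2 change, KO minus WT (horizontal axis), with 95% confidence intervals from limma for 9 elastic fibre genes and 7 partners. The filled square is Ltbp2, which was called, and open circles were not called. Mfap2 and Mmrn1 lie right of 0.

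Of the lysyl oxidases, Loxl1 stood apart. LOXL1 crosslinks elastin and is required for elastic fibre maintenance in adult mice. It read 9.75, 9.39, 10.02 and 10.31 in KO replicates 1 to 4, against 10.65, 11.26, 10.98 and 11.24 in WT replicates 1 to 4. The groups did not overlap, and the change of -1.16 (SE 0.20, 2.24-fold) just missed the threshold (adjusted p = 0.063 by limma). It was called without WT replicate 1 or KO replicate 4 (adjusted p = 0.0443 and 0.0461), and with 1 cluster per gene (0.0476). Other limma fits moved it further from the threshold, such as males only (adjusted p = 0.28). Without KO replicate 1 or WT replicate 3 the adjusted p by limma was 0.192 and 0.163. Lox and Loxl4 changed by -0.09 and -0.05 (adjusted p = 0.910 and 0.834), and 0 of 4 measured lysyl oxidases were called.

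Enzymes that cut elastin and their inhibitors showed no common direction, with 11 of 22 lower and 11 higher. Elane, Mmp7, Ctsg, Prtn3, Cela1, Serpina1b, Serpina1c, Serpina1d, Serpina1e and A2m read at most 5.23 in KO and 5.16 in WT lungs. These lie below the median cluster level of 5.25, so the split rests partly on the signs of dim genes (named after their values were seen). Mmp2, a gelatinase that also cleaves elastin, was called, at 7.65 to 8.98 in KO against 10.33 to 11.17 in WT lungs (fell by 2.27, adjusted p = 0.0232 by limma). The call ended without KO replicate 1 (adjusted p = 0.095) or WT replicate 3 (adjusted p = 0.0931), and with males only (adjusted p = 0.148). Cst3, which encodes the cathepsin inhibitor cystatin C, changed by -0.71 (adjusted p = 0.0506), and Ctsl, an elastin-degrading cathepsin, by -0.31 (adjusted p = 0.194). Cst3 was called by limma in some settings, such as 1 cluster per gene (adjusted p = 0.035) and array weights (0.0465). It was not called in others, such as median-centring (0.0725) and a term for sex (0.0717). Mmp9, a gelatinase of neutrophils, read 8.85, 10.06, 6.29 and 8.68 in KO replicates 1 to 4, against 5.996 to 6.51 in WT lungs (change 2.24, adjusted p = 0.229). Without KO replicate 3 the change was 2.97 and was called (adjusted p = 0.0245). It was not called by limma with males only (adjusted p = 0.48) or without KO replicate 1 (0.405). Mmp9 was highest in KO replicate 2 and within the WT range in KO replicate 3. The neutrophil markers were highest and lowest in these KO lungs, and their part in the Mmp9 values was not tested. Elane, neutrophil elastase, stayed at 3.98 to 4.43 in KO and 4.04 to 4.13 in WT lungs, and was named after its values were seen.

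Of 10 measured receptors for elastic fibre proteins, 5 were lower and 5 higher. Itgb3, the integrin β3 chain of platelets and activated endothelium, was called, at 12.19 to 13.46 in KO against 8.88 to 11.03 in WT lungs (rose by 3.30, adjusted p = 0.0329 by limma), beside the higher platelet markers, whose part in it was not tested. The call ended with a term for sex (adjusted p = 0.0543), with males only (0.258), and without WT replicate 2 or 3 or KO replicate 1, 2 or 3 (adjusted p from 0.0733 to 0.124). Itgb5 and Itga9, chains of integrins that bind fibulin-5 and EMILIN-1, changed by -0.31 and -0.39 (adjusted p = 0.300 and 0.286), and Itga4 by 0.28 (adjusted p = 0.606).

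The fibrillar collagens, the other main fibres of lung matrix, were lower on the same arrays, some by more and some by less. All 11 measured had lower KO means and 4 were called, compared with 0.276% of all clusters. These 4 were Col3a1 (-2.46), Col1a1 (-2.03), Col1a2 (-1.47) and Col5a2 (-0.71). Col5a1, at -0.45, was below the fold minimum (adjusted p = 0.0408 by limma). The median change over the 11 was -0.16, against -0.48 for the 9 elastic fibre genes. Col2a1, Col5a3, Col11a1, Col11a2 and Col24a1 read at most 5.06 in KO and 5.16 in WT lungs, below the median cluster level of 5.25. All 9 elastic fibre genes lay above that level, so these medians do not compare the families at like signal. All 4 collagen calls ended without KO replicate 1 or WT replicate 3 (adjusted p from 0.0671 to 0.158) and with males only. With 1 array left out, those of Col1a2 and Col5a2 ended in 7 of 8 fits, and with a term for sex at adjusted p = 0.0543 and 0.0716. Col27a1 and Col5a3 changed by -0.16 and -0.14 (adjusted p = 0.403 and 0.455). The changes of the 9 elastic fibre genes ran from -1.11 to 0.30. The difference between the families was not tested.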

How the data were processed

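The authors imported scanner files of Clariom D arrays into Transcriptome Analysis Console 4 and deposited log2 signals from RMA (robust multi-array averaging) at its defaults: background correction, quantile normalisation across arrays and probe summarisation. Quantile normalisation hides a change shared by most transcripts. The values span 2.09 to 19.7 log2. Genome build, scan dates and detection calls are not given in the sources used here, and arrays have no read depth, so 4 animals per group limit the precision.

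Names came from the platform annotation, updated through gene identifiers to GRCm38.p6 symbols; 30638 clusters had 1 symbol, 2176 several and 33142 none. KO was compared with WT with the moderated test of limma 3.58.1 under R 4.3.3 (two-sided, 4 against 4, no covariate, Benjamini-Hochberg over 65956 clusters), tested on simulated data. Thresholds are those of the study's methods. The titles name biological replicates, taken as 1 animal each. The members and gene lists were chosen with earlier results of these data known. Named genes were the members, Atf4 and, from each other list, the called genes and the 3 others with the smallest p. The log2 changes are KO minus WT on the deposited scale. Alternatives were 2 further normalisations, 2 filters on dim clusters, 2 ways to reduce clusters to genes, trend and robust limma, and array weights. Further ones were Student's t-test, a term for sex, a fit without the females, a block for replicate number, leaving out each array in turn, and 2 other thresholds. The study's methods name Student's t-test for comparisons of 2 groups in general, and no t-test for the arrays. Promoters are RefSeq's. Figures were drawn with matplotlib 3.10.9.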

Additional observations from a re-analysis of the deposited data

Results flagged for a closer look

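One of 64 combinations of a named gene and a genotype held an array far from the other 3. Lox, a lysyl oxidase, read 9.95 in WT replicate 2 against 10.83 to 11.01 in the other WT lungs, so that the gap to its nearest neighbour was 0.834 of the range of the group, above the 95% critical value for 4 samples. Such a limit is passed by chance in about 1 in 20 groups. The 4 KO lungs lay at 10.45 to 10.69. WT replicate 2 was also the lowest WT lung for Fbln5, Mfap2, Mfap4 and Mfap5 and the highest for Eln.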

How the results depend on the processing

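No elastic fibre gene was called with all arrays under any other setting tried, and the count of genes called was 0 to 1 with 1 array left out, the 1 being Fbln1 without KO replicate 2. The median change of -0.48 became -0.70 among clusters above the upper quartile, where 7 of the 9 genes remained. Genes lower at an unadjusted p under 0.05 numbered between 5 and 7 in every fit. The sign of Fbln2 turned with median-centring (0.0066), cyclic loess (0.0182) and array weights (0.000799), and ran from -0.0734 to 0.0398 with 1 array left out; that of Lox ran from -0.337 to 0.0165.

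The count of partners called, 1 with all arrays, was 3 with 1 cluster per gene and 3 when adjusted p up to 0.10 was allowed. It was 0 with Student's t-test, with males only and with the replicate block, and 0 to 2 with 1 array left out. Clusters called over the whole array, 182, numbered 0 by Student's t-test, 4 with males only and 315 at the looser threshold. With 1 array left out they numbered 8 to 266, 8 being the count without KO replicate 1 or WT replicate 3. With the replicate block 0 clusters were called by limma. Before adjustment, p was under 0.05 for 7694 clusters with the replicate block, 7261 by Student's t-test and 7932 in the limma fit without the block. Same-numbered lungs did not deviate together (correlations -0.22 to 0.05 over 4 pairs), so the numbers were not taken as pairs. All 8 members other than Fbln2 kept their sign throughout. The calls of Atf4, Ltbp2, Mmp2, Itgb3 and the 4 collagens each ended with Student's t-test (adjusted p from 0.184 to 0.236). Each also ended with the replicate block (adjusted p from 0.0651 to 0.174), and that of Col1a2 also with median-centring (adjusted p = 0.0572).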
